A study of Arabidopsis thaliana with 20 samples.

Results

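Pentatricopeptide repeat (PPR) genes encode one of the largest protein families of land plants. They were taken here as the protein-coding nuclear genes of *Arabidopsis thaliana* whose product text in the TAIR10.1 annotation of RefSeq contains the word pentatricopeptide, with AT1G63080 left out. The rule found 261 of 27443 protein-coding nuclear genes and used no measured value. The series compared the chromatin of *h3.3kd* seedlings, in which the histone variant H3.3 is depleted, with that of wild type (WT) seedlings by chromatin immunoprecipitation and sequencing. A total of 5 antibodies was used, against H3K4me3, H3K36me3, the histone variant H2A.Z, the linker histone H1 and histone H3, with 2 replicates per antibody and genotype and thus 20 libraries. The *h3.3kd* plants carried T-DNA insertions in the H3.3 genes *HTR4* and *HTR8* together with an artificial microRNA against the remaining H3.3 gene *HTR5*, expressed from the *HTR5* promoter, and the WT plants were Col-0. H3.3 was thus depleted and not absent. Both genotypes were 10-day-old whole seedlings grown on MS medium with glucose in long days, so that a mark carried by fewer cells and less of it per cell cannot be told apart. Nothing in the labels says whether the replicates were separate cultures, so that p-values measure the spread between these libraries, which may be technical.

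PPR proteins are imported into chloroplasts and mitochondria, where tandem helical repeats bind organelle transcripts base by base. Members of the family edit, splice, process and stabilise these transcripts or help to translate them, and many mutants were found through a loss of photosynthesis or of respiratory complexes. H3K4me3 marks the first nucleosomes of active plant genes and H3K36me3 marks a slightly broader 5′ zone, H2A.Z sits at the start of most genes and also covers the body of genes that respond to stimuli, and H1 binds the linker DNA between nucleosomes.

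The libraries held 10829576 to 68090065 reads in *h3.3kd* and 8688846 to 53927583 reads in WT. In *HTR4* the longest stretch with no read start in *h3.3kd*, 46 positions chosen for that, held 238 WT reads, and the like stretch of *HTR8*, 95 positions, held 499. Over the first 25% of 4 genes of green tissue (*RBCS1A*, *RBCS3B*, *CAB1* and *LHB1B1*), H3K4me3 lay between 0.06 and 1.24 in *h3.3kd* and between -0.10 and 1.13 in WT on the log2 scale defined below. Over 4 seed storage genes it lay between -0.63 and 0.24 in *h3.3kd*, between -0.21 and 0.39 in WT replicate 1 and between 0.57 and 1.53 in WT replicate 2. The green tissue genes and the seed genes were apart only in *h3.3kd* replicate 2 and overlapped in the other 3 libraries. The replicate 2 libraries of H3K4me3 and H2A.Z in both genotypes list no strand and no organelle reads. The WT H3 replicate 2 library stood apart: it had the fewest reads (8688846), and over PPR genes its highest 100 bp bin was 1.54 times its lowest, against 1.94 and 2.78 in *h3.3kd* and 1.81 in WT replicate 1. Every level below that is divided by H3 uses these H3 libraries, so the family's median differences in the windows described are also given without H3 and with the replicate 1 H3 library of each genotype as the divisor of both replicates. Values of single genes and of the partner genes use the H3 library of the same replicate only.

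Each gene was read in 3 windows: the promoter (500 bp before the annotated start), the 5′ window (the first 25% of the gene) and the 3′ window (its last 50%). The level of a mark in a window is the log2 ratio of its reads, scaled to 1000000 reads of the library, to the H3 reads of the same genotype and replicate scaled likewise, so that 0 means as many reads as H3 relative to library size, and the H3 level is log2 of the scaled reads per kilobase. Of the 261 PPR genes, 258 were long enough to be read, among 26205 such genes, and 3 (AT1G12615, AT1G77150 and AT3G42560) were left out because they are shorter than 500 bp. AT5G28370 and AT5G28460 had no uniquely placed read anywhere and were in no fit, and AT1G62910, AT1G63320, AT1G63330, AT3G62540 and AT5G14820 missed some windows, so that 252 to 255 PPR genes were measured per window. The filter asked for a mean of 10 reads over all libraries of an antibody and did not look at genotype.

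PPR genes shared features of structure that the rule did not use. A single exon made up 165 of the 258 PPR genes (64.0%), against 17.2% of the other genes, and their median length was 2274 bp against 2143 bp. The promoter window overlapped another annotated gene in 168 PPR genes (65.1%), against 40.4% of other genes. GC content was 40.77% in the median PPR gene and 38.79% in the median other gene, and 28 PPR genes, translated from the genome, encode a protein that ends in DYW, the class that carries the cytidine deaminase domain of RNA editing. Among PPR genes by the rule, 10 had another such gene as a direct neighbour, and members of the family outside the rule were not counted. The product text is not a complete census of the family: of 465 genes read with the repeat named in the annotation note, 244 were PPR genes by the rule, and the remaining 221 sit among the other genes.

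Promoters of PPR genes were searched on both strands for site II (TGGGCC or TGGGCT), an element known from promoters of ribosomal protein and organelle genes, and for the telo box (AAACCCT). Site II was found within 500 bp of the start in 88 of 258 PPR genes (34.1%), against 26.9% of other genes, 33.4% of F-box genes and 59.2% of ribosomal protein genes. Within 250 bp it was found in 29.5% of PPR genes and 19.5% of other genes. The telo box was found in 42 PPR genes (16.3%), against 12.4% of other genes, 30.8% of F-box genes and 24.4% of ribosomal protein genes. The 150 bases before the start of 6 genes described below are shown, read 5′ to 3′ on the gene's strand from the TAIR10.1 genome of RefSeq, with either motif on either strand in capitals. They are shown because H3 and H3K36me3 levels differed between PPR genes with and without site II, and they include 4 genes with site II, 1 with a telo box alone and 1 with neither motif in its 500 bp.
SVR7, chr4:9257719-9257868, plus strand: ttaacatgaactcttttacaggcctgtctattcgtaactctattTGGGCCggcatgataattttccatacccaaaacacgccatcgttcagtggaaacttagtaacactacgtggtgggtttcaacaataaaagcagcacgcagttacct
CRR4, chr2:18696692-18696841, minus strand: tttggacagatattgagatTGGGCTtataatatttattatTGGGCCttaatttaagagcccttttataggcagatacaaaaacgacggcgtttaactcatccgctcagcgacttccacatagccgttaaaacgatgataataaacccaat
BIR6, chr3:17872033-17872182, minus strand: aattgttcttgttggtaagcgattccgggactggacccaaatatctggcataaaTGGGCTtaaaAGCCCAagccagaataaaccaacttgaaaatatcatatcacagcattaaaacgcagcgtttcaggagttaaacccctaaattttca
PNM1, chr5:24530033-24530182, minus strand: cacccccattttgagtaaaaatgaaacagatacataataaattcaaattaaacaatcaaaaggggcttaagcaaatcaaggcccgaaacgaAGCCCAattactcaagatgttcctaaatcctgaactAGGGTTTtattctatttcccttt
PPR40, chr3:5770489-5770638, minus strand: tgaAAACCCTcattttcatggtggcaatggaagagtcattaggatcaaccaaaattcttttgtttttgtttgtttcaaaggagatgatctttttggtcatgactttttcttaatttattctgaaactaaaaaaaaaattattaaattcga
RPF1, chr1:2016274-2016423, minus strand: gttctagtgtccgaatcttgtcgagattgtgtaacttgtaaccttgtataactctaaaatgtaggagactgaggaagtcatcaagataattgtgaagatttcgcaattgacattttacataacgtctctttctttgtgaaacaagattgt
In *CRR4* and *BIR6* the capitals mark a pair of site II elements close to each other, and in *PNM1* a site II element and a telo box, each on the opposite strand. A match is a run of letters and not a measured binding site.

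PPR genes carried a sharp 5′ peak of H3K4me3, H3K36me3 and H2A.Z in both genotypes, followed by gene bodies poor in H2A.Z and relatively rich in H1. In the mean profile, H3K4me3 was highest in the 100 bp bin that begins 200 and 100 bp after the start in the *h3.3kd* replicates and 300 and 400 bp after it in the WT replicates, at 1.17 and 1.14 in *h3.3kd* and 1.19 and 1.34 in WT. H3K36me3 was highest 300 bp after the start in both *h3.3kd* replicates (1.32 and 0.97) and 500 and 400 bp after it in WT (1.08 and 1.15). H2A.Z was highest 100 bp after the start in both *h3.3kd* replicates (0.87 and 0.63) and 300 and 200 bp after it in WT (1.09 and 0.92). In other genes H2A.Z was also highest nearer the start in *h3.3kd* (200 bp in both replicates) than in WT (300 bp in both), and H3K4me3 over PPR genes in WT replicate 1 was 1.19 in the bins at 200 and at 300 bp alike. These positions were not tested. H1 was highest far into the gene, 1400 to 1900 bp after the start, at 0.29 and 0.21 in *h3.3kd* and 0.25 and 0.51 in WT.

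**Figure D1:**
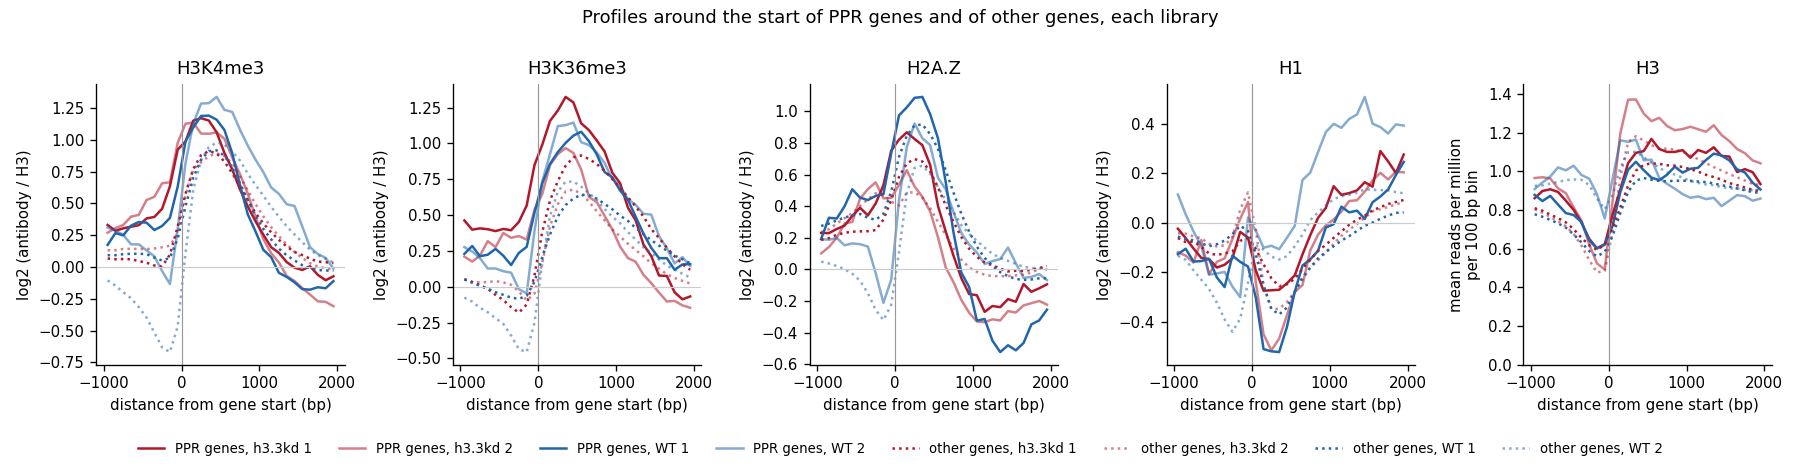
Mean log2 ratio of each antibody to H3 (first 4 panels) and mean H3 reads per 1000000 reads and 100 bp bin (last panel) against distance from the gene start in bp, for PPR genes (solid) and other genes (dotted); red lines are the *h3.3kd* libraries and blue lines the WT libraries, with replicate 2 paler. H3K4me3 over PPR genes reaches 1.14 to 1.34 within 500 bp of the start in every library, and the WT H3 replicate 2 line is the flattest.

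H3K4me3 over the 5′ window was high in almost every PPR gene. Its median over PPR genes was 1.07 and 1.07 in the *h3.3kd* libraries and 1.11 and 1.19 in the WT libraries, and over other genes it was 0.77 and 0.84 in *h3.3kd* and 0.71 and 0.71 in WT. The gap between PPR and other genes had the same sign in 4 of 4 libraries and averaged 0.27 ± 0.05 in *h3.3kd* and 0.44 ± 0.06 in WT (SD, n = 2 each). H3K36me3 over the 5′ window stood further above other genes, with medians of 1.28 and 0.92 in *h3.3kd* and 0.98 and 0.98 in WT over PPR genes, against 0.49 and 0.39 in *h3.3kd* and 0.38 and 0.37 in WT over other genes. No test over genes was made for these gaps, because genes are not replicates of a condition.

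H3K36me3 over the 5′ window of PPR genes was close to that of ribosomal protein genes, which are used in every cell, and above that of genes of similar structure. Over ribosomal protein genes the H3K36me3 median was 1.35 and 1.03 in *h3.3kd* and 1.08 and 0.99 in WT, so that the PPR median minus theirs was -0.09 ± 0.02 in *h3.3kd* and -0.05 ± 0.06 in WT (SD, n = 2 each). Over other single-exon genes of at least 1000 bp it was -0.36 and -0.16 in *h3.3kd* and -0.25 and 0.03 in WT. F-box genes, another large plant family, which encode substrate receptors of ubiquitin ligases, had -0.98 and -0.45 in *h3.3kd* and -0.58 and -0.10 in WT. For H2A.Z over the 5′ window the PPR median lay above that of ribosomal protein genes in 4 of 4 libraries, by 0.33 and 0.23 in *h3.3kd* and 0.34 and 0.60 in WT. In the 3′ window H3K36me3 was -0.14 and -0.11 in *h3.3kd* and 0.10 and 0.23 in WT over PPR genes, against 0.77 and 0.38 in *h3.3kd* and 0.57 and 0.40 in WT over ribosomal protein genes.

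**Figure D2:**
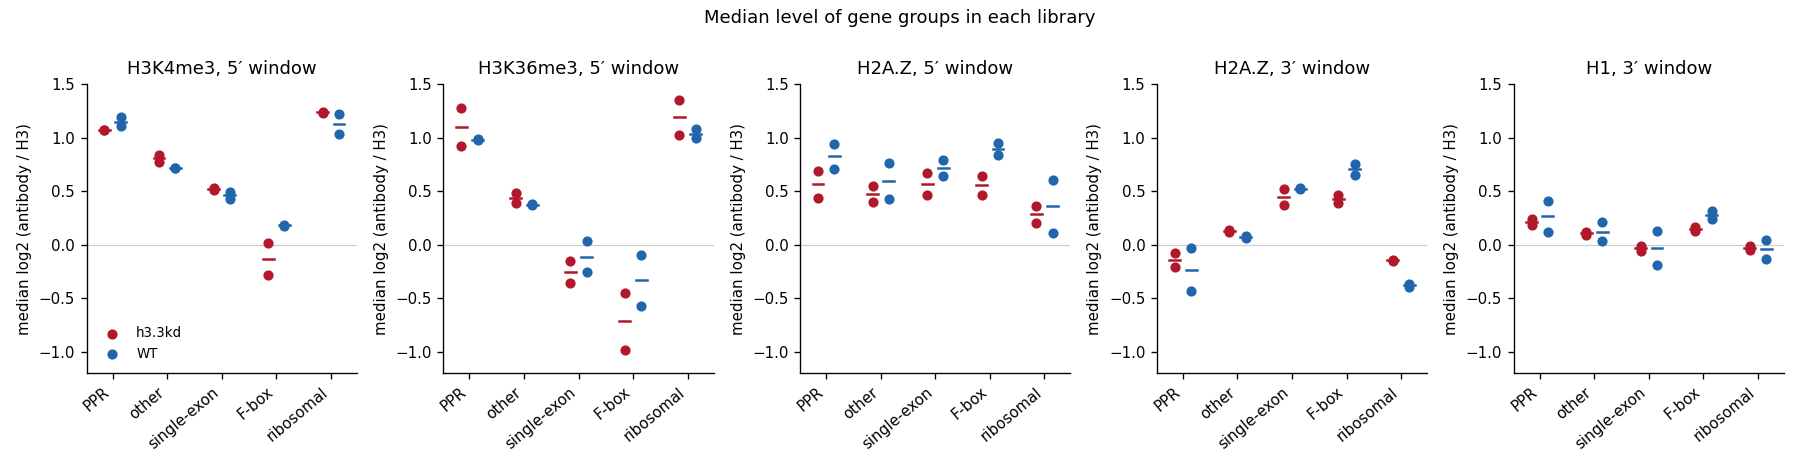
Median log2 ratio of antibody to H3 over PPR genes, other genes, other single-exon genes of at least 1000 bp, F-box genes and ribosomal protein genes, for 5 antibody and window pairs; each point is 1 library (red *h3.3kd*, blue WT) and each bar the mean of 2 libraries. PPR genes sit near ribosomal protein genes for H3K4me3 and H3K36me3 and below other genes for H2A.Z over the 3′ window.

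PPR genes were also alike among themselves. The middle 50% of PPR genes spanned 1.01 to 1.32 for H3K4me3 in WT, against -0.02 to 1.13 for other genes, and 0.78 to 1.19 for H3K36me3, against -0.46 to 1.06. H3K4me3 was above 0 in all 4 libraries in 239 of 253 PPR genes (94.5%), against 62.6% of all genes measured, and H3K36me3 in 221 of 252 (87.7%), against 51.0%. Across PPR genes the WT means of both marks went together (Pearson r = 0.91, Spearman rho = 0.85, n = 252 genes), as they did across all genes (r = 0.90), and both marks share the H3 divisor. Only 4 PPR genes had H3K4me3 below 0 in all 4 libraries (1.58%, against 13.1% of all genes), and all 4 had H3K36me3 below 0 in all 4 libraries too. Of these, AT1G47940 had H3K4me3 of -1.52 and -1.37 in *h3.3kd* and -1.07 and -0.55 in WT. AT1G28000 had -0.67 and -0.76 in *h3.3kd* and -0.32 and -0.54 in WT, AT1G43010 had means of -0.98 in *h3.3kd* and -0.35 in WT, and AT3G11350 had -0.18 and -1.04 in *h3.3kd* and -0.43 and -0.12 in WT. These genes have more than 1 exon each and are shorter than the median PPR gene.

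H2A.Z was above the level of other genes at the 5′ end of PPR genes and below it at the 3′ end. Over the 5′ window its median was 0.69 and 0.44 in *h3.3kd* and 0.94 and 0.71 in WT, above other genes in 4 of 4 libraries by 0.09 ± 0.08 in *h3.3kd* and 0.23 ± 0.08 in WT (SD, n = 2 each). It was not set apart from genes of similar structure there: the PPR median minus that of other single-exon genes was 0.02 and -0.03 in *h3.3kd* and 0.15 and 0.07 in WT, and minus that of F-box genes 0.05 and -0.03 in *h3.3kd* and 0.00 and -0.13 in WT. Over the 3′ window it was -0.08 and -0.21 in *h3.3kd* and -0.43 and -0.03 in WT, whereas other genes had 0.13 and 0.12 in *h3.3kd* and 0.06 and 0.08 in WT. H2A.Z over the 3′ window was above 0 in all 4 libraries in 44 of 254 PPR genes (17.3%), against 41.8% of all genes. Other single-exon genes of at least 1000 bp had 0.52 and 0.37 in *h3.3kd* and 0.53 and 0.52 in WT in the same window. PPR genes were also below F-box genes there in 4 of 4 libraries, but not set apart from ribosomal protein genes. The PPR median minus that of ribosomal protein genes was 0.07 and -0.07 in *h3.3kd* and -0.04 and 0.34 in WT. In WT the 3′ window was below the 5′ window for H2A.Z in 96.8% of PPR genes and 78.1% of other genes. Across PPR genes, H2A.Z over the 3′ window was lower where H3K36me3 over the 5′ window was higher (r = -0.54, rho = -0.54, n = 251 genes, both divided by the same H3 libraries), and across all genes r was -0.64.

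H1 over the 3′ window had medians of 0.24 and 0.18 in *h3.3kd* and 0.12 and 0.41 in WT over PPR genes, against 0.12 and 0.09 in *h3.3kd* and 0.03 and 0.21 in WT over other genes. The gap was positive in 4 of 4 libraries, at 0.10 ± 0.02 in *h3.3kd* and 0.15 ± 0.08 in WT (SD, n = 2 each). The H1 gap to other single-exon genes and that to ribosomal protein genes were positive in 4 of 4 libraries too. Against F-box genes the H1 gap had no common sign, at 0.07 and 0.05 in *h3.3kd* and -0.12 and 0.10 in WT. H3 over the 5′ window was 3.41 and 3.67 in *h3.3kd* and 3.28 and 3.51 in WT, also above other genes in 4 of 4 libraries, by 0.22 ± 0.07 in *h3.3kd* and 0.14 ± 0.02 in WT. Over the 3′ window the H3 gap had no common sign, at 0.11 and 0.15 in *h3.3kd* and 0.09 and -0.05 in WT.

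H3K4me3 and H3K36me3 in the promoter window followed whether that window overlapped another gene. H3K4me3 in promoters of PPR genes that overlap another gene had medians of 0.43 and 0.52 in *h3.3kd* and 0.24 and 0.06 in WT (167 genes), and in promoters that overlap none it had 0.02 and -0.03 in *h3.3kd* and -0.02 and -0.84 in WT (88 genes). H3K36me3 had 0.45 and 0.30 in *h3.3kd* and 0.23 and 0.06 in WT in the first group, and -0.31 and -0.22 in *h3.3kd* and -0.03 and -0.65 in WT in the second. The same split in other genes gave H3K4me3 of 0.20 and 0.25 in *h3.3kd* and 0.10 and -0.34 in WT with an overlap, and -0.37 and -0.43 in *h3.3kd* and -0.18 and -1.28 in WT without one. For H3K4me3 and H3K36me3, PPR promoters were above other promoters in 4 of 4 libraries within either class, while 65.1% of them hold part of a neighbouring gene. This did not hold for H2A.Z and H1. Without an overlap, H2A.Z in WT replicate 2 was -0.58 in PPR promoters and -0.51 in other promoters. With an overlap, H1 in WT replicate 1 was -0.23 in PPR promoters and -0.09 in other promoters.

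Within the family, exon number made little difference to H3K4me3, whose medians differed by -0.04 to 0.02 between single-exon PPR genes and those with more exons. Single-exon PPR genes had more H2A.Z over the 5′ window in 4 of 4 libraries, by 0.09 and 0.12 in *h3.3kd* and 0.13 and 0.13 in WT. The 28 genes that end in DYW had more H2A.Z over the 3′ window than the other PPR genes in 4 of 4 libraries, with medians of 0.18 and -0.01 in *h3.3kd* and -0.17 and 0.43 in WT, against -0.09 and -0.23 in *h3.3kd* and -0.46 and -0.05 in WT. They also had less H3K36me3 over the 3′ window, at -0.40 and -0.34 in *h3.3kd* and -0.14 and 0.19 in WT, against -0.10 and -0.09 in *h3.3kd* and 0.14 and 0.23 in WT. PPR genes of the median length or longer had less H2A.Z over the 3′ window than shorter ones in 4 of 4 libraries, with gaps of -0.22 and -0.18 in *h3.3kd* and -0.30 and -0.19 in WT. These splits are descriptions without a test.

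PPR genes with site II had more H3K36me3 over the 5′ window than those without it in 4 of 4 libraries, with medians of 1.41 and 1.04 in *h3.3kd* and 1.13 and 1.05 in WT, against 1.16 and 0.80 in *h3.3kd* and 0.92 and 0.96 in WT. Their promoters held less H3, with 2.67 and 2.43 in *h3.3kd* and 2.66 and 3.22 in WT, against 2.89 and 2.83 in *h3.3kd* and 2.86 and 3.27 in WT. The smallest of these 4 gaps was that of WT H3 replicate 2. For H3K4me3 over the 5′ window the medians with site II were 1.14 and 1.15 in *h3.3kd* and 1.24 and 1.21 in WT, against 1.03 and 1.03 in *h3.3kd* and 1.05 and 1.18 in WT without it.

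From a list of PPR genes with a known role in organelles, 14 met the rule and illustrate the levels. Others on the list did not meet the rule, and the list does not hold every PPR gene with a known role. Ranks by WT mean are rough, because the order of PPR genes differed between the WT replicates. Spearman rho between them was 0.37 for H3K4me3 and 0.48 for H3K36me3 over the 5′ window, and 0.73 for H2A.Z and 0.26 for H1 over the 3′ window. For H3 over the 3′ window, the divisor of the other levels there, rho was -0.08 (Pearson r = 0.65). Among chloroplast factors, *SVR7* (AT4G16390) is needed for the accumulation and translation of ATP synthase transcripts. *SVR7* ranked 5 of 253 PPR genes for H3K4me3 and 5 of 252 for H3K36me3 by WT mean, with H3K4me3 of 1.10 and 1.11 in *h3.3kd* and 1.70 and 1.46 in WT. *CRR4* (AT2G45350), which creates the *ndhD* start codon by RNA editing, had H3K4me3 of 1.19 and 1.13 in *h3.3kd* and 0.86 and 1.25 in WT, and H3K36me3 of 0.85 and 1.02 in *h3.3kd* and 0.63 and 1.03 in WT. It ranked 19 of 254 for H2A.Z over the 3′ window, with 0.25 and 0.40 in *h3.3kd* and 0.70 and 0.54 in WT, so that all 4 values lay above the family median. The other chloroplast factors were *PPR4*, a splicing factor known as such in maize, and the editing factors *CRR22*, *LPA66*, *RARE1* and *OTP85*.

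Among mitochondrial factors, the editing factor *MEF11* (AT4G14850) ranked 22 of 253 for H3K4me3, with 1.38 and 1.08 in *h3.3kd* and 1.34 and 1.54 in WT. *PPR40* (AT3G16890), which acts at complex III of the respiratory chain, had H3K4me3 of 1.35 and 0.89 in *h3.3kd* and 1.21 and 1.22 in WT. It ranked 18 of 254 for H1 over the 3′ window, with 0.37 and 0.42 in *h3.3kd* and 0.41 and 0.69 in WT. *RPF1* (AT1G06580), an RNA processing factor for 5′ ends of mitochondrial transcripts, had H3K4me3 of 1.12 and 1.23 in *h3.3kd* and 1.05 and 1.00 in WT, and *PNM1* (AT5G60960), found in mitochondria and nucleus, had 1.06 and 1.01 in *h3.3kd* and 1.05 and 1.36 in WT. The genotypes overlapped in *CRR4*, *MEF11*, *PPR40* and *PNM1*, and in *RPF1* both *h3.3kd* values were above both WT values by less than 1 standard error of 0.24. The remaining mitochondrial factors were *OTP43* and *BIR6*, which splice transcripts of complex I, and the editing factor *AHG11*. Over the 14 genes the mean H3K4me3 lay between 0.77 and 1.31 in *h3.3kd* and between 0.89 and 1.58 in WT.

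**Figure D3:**
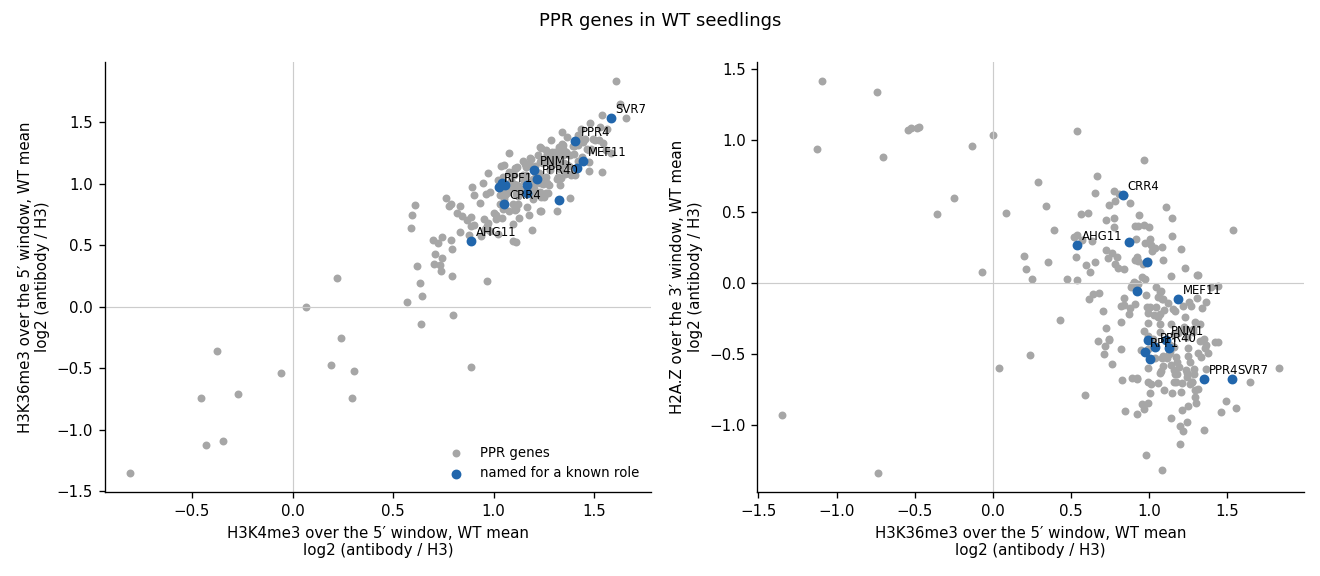
WT mean log2 ratio of antibody to H3 of each PPR gene in 1 window plotted against another; grey points are PPR genes and blue points those named for a known role. H3K4me3 and H3K36me3 over the 5′ window lie along 1 line (r = 0.91), and H2A.Z over the 3′ window is lower where H3K36me3 is higher (r = -0.54).

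The comparison of *h3.3kd* with WT asked whether the depletion of H3.3 changed these patterns. No PPR gene passed an adjusted p of 0.05 in any of 15 limma fits, 1 for each antibody and window. Over all genes the fits called 0.0693% of genes for H3K4me3 in the promoter and 0.00769% in the 3′ window, and 0.0193%, 0.0195% and 0.131% for H3K36me3 in the promoter, 5′ window and 3′ window, and 0% for H3K4me3 in the 5′ window and for every window of H2A.Z, H1 and H3. At an unadjusted p under 0.05 the limma fits had between 3 and 52 PPR genes. The 3, all lower, of 253 were for H1 in the 5′ window, against 432 lower and 269 higher of 25924 genes. The 52 were for H3K36me3 in the 3′ window and are set beside all genes below. The next largest count was for H3K4me3 in the promoter. It was 37 higher and 0 lower of 255 PPR genes, against 1438 higher and 13 lower of 25966 genes. A second test, limma-voom, called 0 PPR genes in all 15 fits. With 2 libraries per genotype, the median standard error of a PPR gene's difference was 0.20 to 0.44 on the log2 scale. Differences well beyond these standard errors also went uncalled after adjustment over all genes. The largest fall of H3K36me3 over the 5′ window, for example, was -1.18 and was not called. Counts of genes whose 2 *h3.3kd* values lie on 1 side of both WT values are therefore set beside the same share over all genes.

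H2A.Z over the 5′ window was lower in most of the family, with no gene past the test. Its median difference over the 5′ window of PPR genes was -0.27, with -0.27 within replicate 1 and -0.29 within replicate 2, against -0.14 over all genes. The fall was not particular to PPR genes. The PPR median minus that of F-box genes was 0.01 in *h3.3kd* and -0.07 in WT (means of 2 libraries), so the F-box median fell no less. The gap to other single-exon genes was -0.01 in *h3.3kd* and 0.11 in WT, so their median fell less. Against ribosomal protein genes it was 0.28 in *h3.3kd* and 0.47 in WT, again a smaller fall in theirs. The difference was negative in 232 of 254 PPR genes and positive in 22 (8.66%), against 32.2% positive over all genes. In 118 PPR genes (46.5%) both *h3.3kd* values lay below both WT values, against 26.1% of all genes. Without H3 as divisor the median was -0.15 in PPR genes and -0.09 in all genes, with shares of 55.1% and 32.1%. With H3 replicate 1 the medians were -0.25 and -0.19, with shares of 65.4% and 50%. With the replicate number as a block and a correction for GC content the median was -0.21 in PPR genes and -0.13 in all genes. Within replicates the PPR median was then -0.33 in replicate 1 and -0.09 in replicate 2, and the share was 31.1%, against 26% of all genes. In each of these settings the PPR median was closer to that of all genes than in the main setting. H3 over the 5′ window had a median difference of 0.12 in PPR genes in the same window. The lowest adjusted p by limma was 0.998, and with H3 replicate 1 as the divisor of both replicates, which takes the spread of H3 out of the error, 37 of 254 PPR genes (14.6%) were called, all lower, against 11.1% of all genes. Leaving out 1 library moved the median between -0.39, with WT replicate 2 left out, and -0.16, with *h3.3kd* replicate 2 left out, and 2 PPR genes (0.787%) were called without WT replicate 1, against 3.99% of all genes.

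Of the 14 listed PPR genes with a known role, 13 had a negative difference in H2A.Z over the 5′ window and 1 a positive one. Over all genes 32.2% were positive. In 9 of the 14 both *h3.3kd* values lay below both WT values, against 26.1% of all genes. *MEF11* had H2A.Z of 0.83 and 0.60 in *h3.3kd* and 1.29 and 1.21 in WT, a difference of -0.53 ± 0.32 (SE, limma adjusted p = 0.998). *PNM1* had -0.08 and -0.31 in *h3.3kd* and 0.20 and 0.25 in WT, and *CRR4* had 0.97 and 0.71 in *h3.3kd* and 1.03 and 1.19 in WT. The groups did not overlap in these 3 genes nor in *RPF1*, which had 0.05 and 0.30 in *h3.3kd* and 0.47 and 0.32 in WT. In *PPR40*, with 0.96 and 0.28 in *h3.3kd* and 1.15 and 0.79 in WT, they overlapped. None of these genes passed the test alone.

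**Figure D4:**
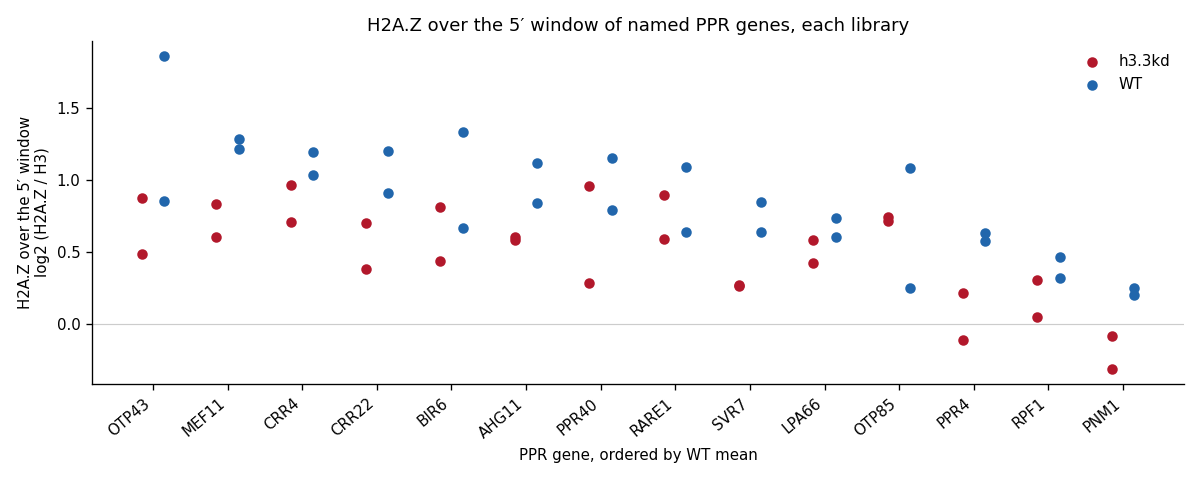
Log2 ratio of H2A.Z to H3 over the 5′ window of 14 PPR genes with a known role, ordered by WT mean; each point is 1 library, with *h3.3kd* in red to the left of WT in blue. In 9 genes both red points lie below both blue points, as in 26.1% of all genes, and *OTP85* is the gene with a positive difference.

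H3K36me3 over the 3′ window had the largest share of PPR genes on 1 side. The median difference was -0.28 (-0.22 within replicate 1 and -0.33 within replicate 2), against -0.17 over all genes, and both *h3.3kd* values lay below both WT values in 129 of 253 PPR genes (51%), against 28.6% of all genes. The PPR median minus that of F-box genes was 0.96 and 0.42 in *h3.3kd* and 0.61 and 0.485 in WT. The F-box median thus fell more within replicate 1 and less within replicate 2. Against other single-exon genes the gap was 0.25 in *h3.3kd* and 0.37 in WT (means of 2 libraries). Against ribosomal protein genes it was -0.70 in *h3.3kd* and -0.32 in WT, so both these groups fell less. At an unadjusted p under 0.05 limma had 51 PPR genes lower and 1 higher of 253, against 1321 lower and 433 higher of 25958 genes. The lowest adjusted p by limma was 0.0996, for AT2G20720. H3 over the 3′ window had a median difference of 0.18 in PPR genes against 0.07 in all genes, and its part in the H3K36me3 difference was not tested. Without H3 the H3K36me3 median was -0.08 in PPR genes and -0.10 in all genes, with 28.5% of PPR genes and 22.8% of all genes below, and with H3 replicate 1 it was -0.11 in PPR genes and -0.10 in all genes, with 34.4% and 27.6% below. Within replicates the PPR median was -0.19 and 0.01 without H3 and -0.22 and 0.00 with H3 replicate 1, so that under either divisor the difference was that of replicate 1. With H3 replicate 1, 6 PPR genes (2.37%) were called, 5 of them lower, against 2.29% of all genes. With the replicate number as a block and a correction for GC content 24 (9.49%) were called, 23 of them lower, against 2.87% of all genes. *PPR40* was 1 of the genes whose values did not overlap, with -0.44 and -0.33 in *h3.3kd* and 0.24 and 0.14 in WT (difference -0.57 ± 0.25, SE, limma adjusted p = 0.642).

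The H3 difference over the 3′ window was positive in 223 of 254 PPR genes (87.8%), against 63.2% of all genes. The PPR median minus that of F-box genes was 0.04 in *h3.3kd* and 0.06 in WT (means of 2 libraries). Against other single-exon genes it was -0.01 in *h3.3kd* and -0.06 in WT, so the medians of both groups rose as well. Against ribosomal protein genes it was 0.18 in *h3.3kd* and -0.03 in WT. Both *h3.3kd* values exceeded both WT values in 100 of 254 PPR genes (39.4%), against 21.7% of all genes. The median difference was 0.02 within replicate 1 and 0.34 within replicate 2, the replicate with the WT H3 library that stood apart, and the cause was not tested. Leaving out WT replicate 2 gave 0.08, and leaving out WT replicate 1, so that the library that stood apart was the only WT one, gave 0.28 and 49 called PPR genes (19.3%), against 18.4% of all genes. AT1G77405 had the largest difference, 0.84 ± 0.22 (SE), with 3.78 and 3.97 in *h3.3kd* and 3.29 and 2.79 in WT, and AT1G43010 had a difference of 0.75 ± 0.25 (limma adjusted p = 0.962 for both). Differences of single genes are rough here. Across PPR genes, H3 differences within replicate 1 and within replicate 2 had a Spearman rho of -0.17.

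The differences of 3 further windows turned with the divisor or the replicate. H2A.Z over the 3′ window had a median difference of 0.05 (0.31 within replicate 1 and -0.17 within replicate 2), and both *h3.3kd* values exceeded both WT values in 44 PPR genes (17.3%), against 24.6% of all genes. Without H3 the median was 0.23 in PPR genes and 0.09 in all genes, with shares of 57.9% and 34.3%. With H3 replicate 1 the medians were 0.25 and 0.10, with shares of 57.1% and 39.2%. Leaving out WT replicate 2 gave 50 called PPR genes (19.7%), 49 of them higher, against 20.3% of all genes. Leaving out WT replicate 1 gave 14 (5.51%), 12 of them lower, against 6% of all genes. H1 over the 3′ window had a median difference of -0.09 (0.08 within replicate 1 and -0.23 within replicate 2), with both *h3.3kd* values below both WT values in 53 PPR genes (20.9%), against 15.8% of all genes. Without H3 the H1 median was 0.10 in PPR genes and 0.06 in all genes. Then 98 PPR genes (38.6%) were above, against 24.2% of all genes, and 5 (1.97%) below, against 6.24%. With H3 replicate 1 the H1 median was 0.09 in PPR genes and 0.06 in all genes. H3K36me3 over the 5′ window had 0.03 (0.19 within replicate 1 and -0.15 within replicate 2), with 44 PPR genes (17.5%) below, against 14.2% of all genes. Without H3 its median was 0.18 in PPR genes and 0.05 in all genes. Then 98 PPR genes (38.9%) were above, against 20.7% of all genes, and 26 (10.3%) below, against 11.2%. With H3 replicate 1 its median was 0.03 in PPR genes and -0.05 in all genes.

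H3K4me3 differed little over the 5′ window. The median difference was -0.10 (-0.06 within replicate 1 and -0.16 within replicate 2), against 0.00 over all genes, and both *h3.3kd* values lay below both WT values in 70 of 253 PPR genes (27.7%), against 14.5% of all genes. Without H3 the median was 0.05 in PPR genes and 0.08 in all genes, with 6 PPR genes below (2.37%, against 4.35% of all genes) and 9 above (3.56%, against 10.7%). With H3 replicate 1 it was -0.07 in PPR genes and -0.04 in all genes. In the promoter the H3K4me3 median difference was 0.38, with 99 of 255 PPR genes (38.8%) above, against 25.8% of all genes, and all genes had 0.31. The H3 median in the promoter was 2.81 and 2.69 in *h3.3kd* and 2.81 and 3.23 in WT, the highest in the library that stood apart. The promoter difference was 0.09 without H3 and 0.07 with H3 replicate 1, and leaving out WT replicate 1 gave 82 called PPR genes (32.2%), 80 of them higher, against 31.2% of all genes.

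**Figure D5:**
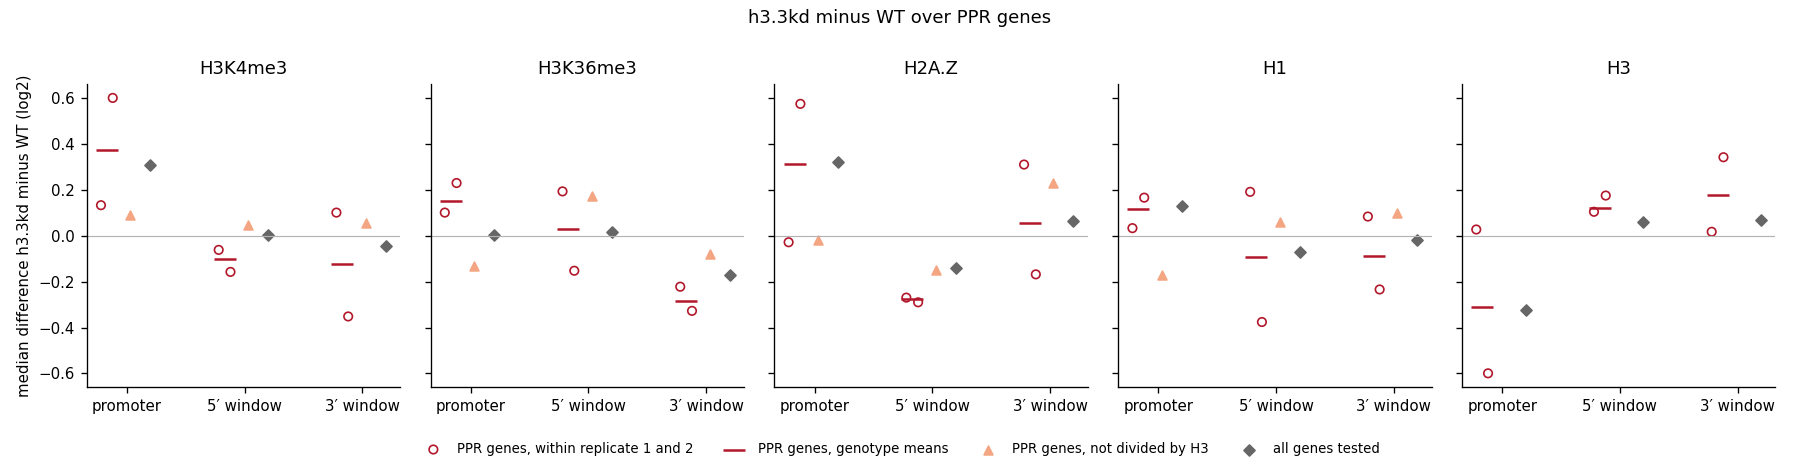
Median difference (*h3.3kd* minus WT, log2) over PPR genes in the promoter, 5′ window and 3′ window for each antibody; open circles are differences within replicates 1 and 2, bars those of the genotype means, triangles those without division by H3, and grey diamonds all genes tested. H2A.Z over the 5′ window (-0.27) and H3K36me3 over the 3′ window (-0.28) are negative in both replicates with the same-replicate H3 as divisor, and H2A.Z over the 3′ window moves from 0.05 to 0.23 without H3.

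None of the largest differences of single PPR genes passed the limma test. For H3K36me3 over the 5′ window, AT5G06400 had -0.66 and -0.63 in *h3.3kd* and 0.62 and 0.45 in WT (difference -1.18 ± 0.36, SE, limma adjusted p = 0.717), and AT5G61800 had -0.52 and -0.63 in *h3.3kd* and 0.74 and 0.34 in WT (-1.11 ± 0.36, adjusted p = 0.827 by limma). In both genes H3K36me3 lay below 0 in both *h3.3kd* libraries and above 0 in both WT libraries. In the other direction AT1G09820 had 1.54 and 1.07 in *h3.3kd* and 0.82 and 0.66 in WT. For H3K4me3, AT2G27229 had 1.27 and 1.65 in *h3.3kd* and 0.91 and 0.69 in WT, and AT2G33760 had 0.77 and 0.55 in *h3.3kd* and 1.08 and 1.68 in WT. For H2A.Z over the 3′ window, AT1G43010, which had the most H2A.Z there in WT among PPR genes with at least 50 reads, had 0.71 and -0.10 in *h3.3kd* and 1.27 and 1.56 in WT (-1.11 ± 0.29, limma adjusted p = 0.544), and AT1G77405 had -0.27 and -0.15 in *h3.3kd* and 0.22 and 1.03 in WT.

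AT1G77405 and AT1G43010 were extreme for H3 as well, in the opposite direction, and H3 is the divisor of their ratios. AT1G77405 also had a negative difference for H1, -0.60 ± 0.18 (SE, limma adjusted p = 1), with -0.01 and -0.10 in *h3.3kd* and 0.40 and 0.70 in WT. Among PPR genes with at least 50 reads the highest H1 in WT was in AT1G63070, with 0.26 and 0.24 in *h3.3kd* and 0.43 and 1.10 in WT, in a window where 21.0% of positions carry no read in any library. For H3K4me3 the highest WT mean among them was in AT4G38150, with 1.09 and 0.90 in *h3.3kd* and 1.11 and 2.21 in WT, of which the last value stands alone.

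Genes that work with PPR proteins in organelle RNA metabolism were read in the same way, from a list of 33 that includes other editing and splicing factors. Of these, 32 were measured that are not PPR genes by the rule. None was called in either direction in any of the 15 limma fits. Their median for H3K4me3 over the 5′ window was 1.08 in *h3.3kd* and 1.19 in WT, H3K36me3 was 1.31 in *h3.3kd* and 1.15 in WT, and H2A.Z over the 3′ window was -0.22 in *h3.3kd* and -0.46 in WT. H2A.Z over the 5′ window was 0.30 in *h3.3kd* and 0.62 in WT, with both *h3.3kd* values below both WT values in 15 of the 32 genes, against 26.1% of all genes, and a lowest adjusted p of 0.998 by limma.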

How the data were processed

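The deposited files list 1 line per read with its chromosome and leftmost position, and these read positions are the only measured values used. The authors aligned the reads with Bowtie to TAIR10, kept uniquely mapping reads and removed those at the same coordinates. Regions shared by near-identical genes therefore carry no reads. Reads were placed 25 bp to the right of the listed position and were not extended, since 4 libraries list no strand, so that edges are blurred. They were counted in each window of genes of at least 500 bp from the RefSeq annotation of TAIR10.1, scaled to 1000000 reads of the library, given a pseudocount of 0.1 on that scale, log2 transformed and divided by H3 of the same genotype and replicate. Windows with a mean under 10 reads were dropped. limma 3.58.1 in R 4.3.3 fitted *h3.3kd* against WT for each antibody and window over all genes, with Benjamini-Hochberg adjustment over all genes and a threshold of 0.05, after tests on simulated data. Python 3.11.15 with numpy 2.4.6 and pandas 2.3.3 did the counting. Libraries held 8688846 to 68090065 reads, and the median PPR gene had 47.8 to 574 reads per window, by antibody and window. The number of reads limits precision to counting error plus the spread of 2 libraries.

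Samples were grouped by the genotype and antibody in their labels. The members, gene lists and tests were chosen with earlier results of these data known. Named genes are 14 with a known role (full values for *CRR4*, *MEF11*, *PPR40*, *RPF1* and *PNM1*), and, for each antibody in its main window (5′ for H3K4me3 and H3K36me3, 3′ for the others), the highest and lowest 2 in WT and the 2 with the largest difference in each direction among PPR genes with at least 50 reads; of these a selection is described, and *SVR7* and the 4 genes with low H3K4me3 were chosen after their values were seen. Alternatives changed the H3 divisor, the pseudocount, the filter, the test, the block, the windows and the libraries. The replicate numbers do not pair the samples by any label.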

Additional observations from a re-analysis of the deposited data

How the results depend on the processing

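Of 137 values recomputed under another setting with all libraries kept, 124 stayed within the spread between replicates or within 1.5 times a count, and 13 moved. The H3K4me3 difference between *h3.3kd* and WT over the 5′ window was 0.0458 without H3. The WT gap between PPR and other genes over the 5′ window was 0.61 for H3K4me3 and 0.88 for H3K36me3 without H3, 0.38 and 0.50 in windows without overlap or unmapped stretches, and 0.35 and 0.50 with the replicate block and a GC correction. For H3K36me3 that gap was 0.64 with pooled H3, 0.56 with H3 replicate 1 and 0.65 without a filter on low counts. With H3 replicate 1 as divisor 1 PPR gene was called for H3K36me3 over the 5′ window and 1 for H2A.Z over the 3′ window, against 0.767% and 0.554% of all genes. The cause was not tested.

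When each library was left out in turn, the lone library being assumed to vary like the others, the called PPR genes numbered 0 to 6 for H3K4me3 and 0 to 0 for H3K36me3 over the 5′ window, and 0 to 50 for H2A.Z, 0 to 2 for H1 and 0 to 49 for H3 over the 3′ window. The 6, 2 and 49 came without WT replicate 1, where 5.46%, 0.811% and 18.4% of all genes were called, and the 50 without WT replicate 2, where 20.3% were. The median differences ranged from -0.15 to -0.06, from -0.17 to 0.21, from -0.14 to 0.23, from -0.22 to 0.07 and from 0.08 to 0.28 in the same order of antibodies, and the WT gaps to other genes from 0.40 to 0.48, from 0.60 to 0.62, from -0.50 to -0.12, from 0.09 to 0.20 and from -0.05 to 0.09.

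With the replicate number as a block, 0 PPR genes were called in each main window, and with the block and a GC correction 5 (1.97%) were called for H2A.Z over the 3′ window, against 3.22% of all genes. Over all genes the block called 14 genes against 5 for H3K36me3 over the 5′ window, and 29 against 0 for H2A.Z, 23 against 0 for H1 and 3 against 0 for H3 over the 3′ window. Deviations of same-numbered libraries correlated between -0.25 and 0.20. For H3 over the 3′ window, where the correlation was -0.11, a crossed pairing chosen after seeing the data called 0 genes. In the H3K4me3 promoter, pooled H3 called 53 PPR genes (20.8%, against 10.3% of all genes) and H3 replicate 1 called 15 (5.88%, against 3.22%). The counts of genes on 1 side of WT under other divisors were also chosen after seeing the data. Of 3307 values of named genes under other settings 30 were called, 0 of them in the opposite direction to the reported value.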
